A study of Mus musculus with 12 samples.

Results

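Expression of 34 genes of glycolysis and the hypoxia response was followed across sorted cells of mouse joints, in health and in arthritis. The genes were taken by symbol from the 32285 genes of the deposited matrices: 2 glucose transporters, 9 genes of the steps from hexokinase to aldolase, 7 of the steps from triose phosphate to lactate, 2 lactate carriers, 3 genes that restrain or remove mitochondria, 3 regulators of the hypoxia-inducible factor (HIF) and 8 of its known targets. The near-identical Eno1 and Eno1b were left out, since they differed by well. The study compared synovial cells of ankle and wrist joints by droplet single-cell RNA sequencing, in 6 wells with 3 hashtags each, an antibody tag marking the mouse or condition a cell came from. All mice were of the strain R5 x R26tdTomato with the genotype Il5 wt/Cre; R26 tdTom/tdTom and 8 to 10 weeks old, so that the healthy controls carried the same Cre and reporter alleles. Cre is driven from the Il5 gene, and the tdTomato mark is kept by cells that expressed it at any earlier time.

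Healthy mice were untreated. The other groups had serum transfer arthritis, called STA below, or STA with Il23mc, the labels' name for an interleukin-23 treatment. Innate lymphoid cells (ILCs) were sorted as viable, CD45+ and tdTomato+ cells lacking CD3, TCRb, TCRgd, CD11b and GR-1, and fibroblasts as viable cells lacking CD45 and GR-1. In experiment 1 each ILC well held 1 condition with 3 hashed mice, which leaves the well and the condition inseparable for those cells, and 1 fibroblast well held a healthy, an STA and an STA+Il23mc hashtag. In experiment 2 a healthy, a mild STA and a severe STA hashtag shared a well, once for ILCs and once for fibroblasts. The labels name 4 pooled animals per well and the files 3 hashtags, and how many animals stand behind a fibroblast hashtag is not given in the sources used here.

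Glycolysis breaks glucose down to pyruvate through a chain of cytosolic enzymes, and lactate dehydrogenase turns pyruvate into lactate, which monocarboxylate carriers take out of the cell. HIF is a pair of proteins whose alpha subunit, encoded for one form by Hif1a, is hydroxylated by the Egln enzymes when oxygen is present and then degraded. When oxygen is low, or when inflammatory signals raise Hif1a transcription, HIF binds a short core sequence near many glycolytic genes and raises their transcription. In joints, this programme has been studied in the inflamed synovium, where fibroblasts with a high use of glucose are a known feature of arthritis. ILC2 and ILC3 are tissue lymphocytes that make type 2 cytokines and the cytokines Il17a and Il22, in that order, and they too draw on glycolysis when activated.

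Levels are given as CPM, the count of unique molecules (UMIs) of a gene divided by the UMIs of all genes in the cells of that class and hashtag, on the field's usual CPM scale. ILC2 sums held 795046 to 4638015 UMIs, ILC3 sums 118674 to 2727118 and fibroblast sums 3103104 to 17064647. The members gave 2876 to 16925 UMIs per hashtag in ILC2, 664 to 22894 in ILC3 and 11155 to 94191 in fibroblasts. The sorted types carried their markers: the summed ILC2 list stood at 8262 to 10910 CPM in ILC2 and 277 to 355 in fibroblasts, and the fibroblast list at 32220 to 59300 and 162 to 490.4 CPM in the same order. In healthy cells annotated ILC3 the defining genes Il22 (0 to 18.3 CPM) and Il17a (1.21 to 27.4 CPM) were low. Gapdh, Ldha, Pgk1 and other glycolytic genes have processed pseudogenes, and the treatment of reads that fit both is not given in the sources used here. Differences are log2 fold changes from edgeR's quasi-likelihood test, two-sided, adjusted by Benjamini-Hochberg over all genes tested, with 0.05 as the threshold.

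The promoters of the members show how densely the HIF core is placed beside them. The 250 bases before the RefSeq start were searched on both strands for the letters ACGTG and GCGTG, the forms of the core, with the palindrome CACGTG counted as 1 site. This palindrome is also the E-box bound by other factors. RefSeq's table held 30 of the 34 members, all but Slc2a3, Bnip3l, Angptl4 and Ndrg1. At least 1 core stood before 27 of the 30, or 90%, against 41.5% of all 27025 genes in the table, and at least 2 stood before 66.7% against 15.5%. The members' windows are also richer in G and C, with a median of 65.2% against 52.8%, and among all genes with a window of at least 58.6% G and C the share with a core was 66.6%. Shown are windows of 6 members whose levels are described below, in lower case with the cores in capitals and read 5′ to 3′ on the gene's strand, from build GRCm38.p6. They are Pgk1 (chrX:106186850-106187099, plus strand, cores 150 and 131 bases before the start), Slc16a3 (chr11:120948817-120949066, plus strand, cores at 27 and 14 bases), Hif1a (chr12:73907617-73907866, plus strand, cores at 135 and 70 bases, 1 of them the palindrome), Ldha (chr7:46846832-46847081, plus strand, the second of its listed starts, core at 59 bases, while the window of the first holds 3), Egln3 (chr12:54203875-54204124, minus strand, core at 229 bases) and Gpi1 (chr7:34230337-34230586, minus strand, with no core in the window).
Pgk1: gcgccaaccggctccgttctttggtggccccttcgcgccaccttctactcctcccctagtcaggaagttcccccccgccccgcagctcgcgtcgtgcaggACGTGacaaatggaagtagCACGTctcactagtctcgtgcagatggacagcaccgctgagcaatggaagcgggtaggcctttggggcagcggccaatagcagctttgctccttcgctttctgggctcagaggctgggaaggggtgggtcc
Slc16a3: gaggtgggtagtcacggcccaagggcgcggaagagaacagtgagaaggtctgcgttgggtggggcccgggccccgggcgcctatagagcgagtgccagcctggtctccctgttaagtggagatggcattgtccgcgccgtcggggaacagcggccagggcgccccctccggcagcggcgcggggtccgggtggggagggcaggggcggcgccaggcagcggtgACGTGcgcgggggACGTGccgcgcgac
Hif1a: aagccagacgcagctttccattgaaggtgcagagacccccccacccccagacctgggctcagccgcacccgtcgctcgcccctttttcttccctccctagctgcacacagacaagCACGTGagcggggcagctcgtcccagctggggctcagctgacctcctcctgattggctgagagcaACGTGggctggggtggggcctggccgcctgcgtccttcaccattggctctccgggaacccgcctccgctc
Ldha: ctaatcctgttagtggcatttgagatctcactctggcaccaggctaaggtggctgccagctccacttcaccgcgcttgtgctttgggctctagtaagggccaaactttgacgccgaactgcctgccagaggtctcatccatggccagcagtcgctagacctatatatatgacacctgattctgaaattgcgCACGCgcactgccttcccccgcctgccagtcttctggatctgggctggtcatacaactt
Egln3: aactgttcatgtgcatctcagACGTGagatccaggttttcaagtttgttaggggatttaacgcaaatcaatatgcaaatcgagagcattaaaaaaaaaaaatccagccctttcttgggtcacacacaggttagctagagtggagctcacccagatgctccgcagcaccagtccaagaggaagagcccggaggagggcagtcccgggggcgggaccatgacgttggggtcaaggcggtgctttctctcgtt
Gpi1: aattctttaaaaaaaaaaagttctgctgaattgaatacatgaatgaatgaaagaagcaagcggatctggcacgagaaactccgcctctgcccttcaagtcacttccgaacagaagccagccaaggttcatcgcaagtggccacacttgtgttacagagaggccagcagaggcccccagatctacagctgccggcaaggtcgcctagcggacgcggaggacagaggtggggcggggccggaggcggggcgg

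Cores are frequent in windows rich in G and C, so their presence is a description of these letters and does not mark a site bound in these cells. Of the windows shown, those of Slc16a3, Pgk1, Ldha and Hif1a belong to genes that rose in fibroblasts with arthritis, that of Egln3 to a gene that fell, and that of Gpi1 to a gene that did not pass the test there. They do not stand for all members, since Tpi1 had no core in its window and rose there. Hk1, Hk2 and Bnip3 had up to 3, 2 and 4 cores in a window and did not pass. A relation between cores and change was not tested.

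In fibroblasts, arthritis was accompanied by higher RNA of the later steps of glycolysis, of lactate export and of Hif1a itself. Of 33 members tested, 14 rose and 2 fell in STA against healthy fibroblasts, where 9.83% of the 13249 genes tested rose and 8.76% fell. The median log2 difference was 0.43 over the members and 0.02 over all genes tested. The 16 members past the test did so without overlap between the 2 healthy and the 3 STA hashtags. Groups did not overlap for 21 of 33 members (63.6%) and for 42.1% of all genes tested. Summed over the 34 members, the level was 3420 and 3595 CPM in the healthy hashtags and 5258, 5100 and 5196 in the STA hashtags. Below, healthy values come in the order experiment 1 and experiment 2, and STA values in the order experiment 1, mild and severe.

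Sugar entry and its first steps changed at single genes. Slc2a1, the widely expressed glucose transporter GLUT1, stood at 16.4 and 39.0 CPM in healthy and 39.1, 69.5 and 50.4 CPM in STA fibroblasts. Its healthy value in experiment 2 almost met the STA value of experiment 1, and it rose by a log2 difference of 0.88 (SE 0.21, edgeR adjusted p = 0.0298). Pfkl, the liver-type phosphofructokinase of the committed step, stood at 9.93 and 7.09 CPM and then at 26.2, 24.3 and 20.7 CPM. Every STA hashtag held more than either healthy one (1.53, SE 0.18, edgeR adjusted p = 0.00362). Pfkp, the platelet-type enzyme of the same step, went the other way, from 86.8 and 81.9 to 42.4, 47.4 and 49.8 CPM. It was lower in all 3 STA hashtags and fell by 0.86 on the log2 scale (SE 0.12, edgeR adjusted p = 0.00505). Hk2, the inducible hexokinase that traps glucose in the cell, stood at 321 and 468 CPM in healthy fibroblasts and at 177, 439 and 419 CPM with arthritis. The STA hashtag of experiment 1 lay below its well's healthy one and those of experiment 2 lay near theirs, and the difference did not pass (-0.43, SE 0.17, edgeR adjusted p = 0.134). Aldoa, the aldolase, stood at 299 and 297 and then at 329, 318 and 361 CPM, and Gpi1, the isomerase after hexokinase, at 123 and 111 and then at 122, 132 and 128 CPM. Neither passed. Slc2a3, Hk1, Pfkfb3 and Pfkfb4 did not pass either, and Aldoc, at 0 to 0.422 CPM, was too low to test.

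From triose phosphate to lactate, 6 of the 7 genes rose. Gapdh, which oxidises the triose, stood at 593 and 468 CPM in healthy and 1104, 725 and 810.2 CPM in STA fibroblasts. All STA hashtags were above both healthy ones, and the widest gap was within the well of experiment 1 (0.81, SE 0.10, edgeR adjusted p = 0.0044). Pgk1, which makes the first ATP of the pathway, stood at 89.4 and 114 and then at 210.3, 205 and 218 CPM. Its STA values lay close together and well above the healthy ones (1.05, SE 0.12, edgeR adjusted p = 0.00312). Pkm, pyruvate kinase, stood at 250 and 208 and then at 527, 389.7 and 404 CPM. It was highest in the STA hashtag of experiment 1 (1.01, SE 0.10, edgeR adjusted p = 0.00241). Tpi1, which interconverts the triose phosphates, stood at 126 and 118 and then at 216, 189 and 222 CPM. The groups did not overlap (0.80, SE 0.12, edgeR adjusted p = 0.00592). Pgam1, the mutase, stood at 103 and 133 and then at 209, 187 and 213 CPM. Here too the STA hashtags were all higher (0.79, SE 0.13, edgeR adjusted p = 0.00957). Ldha, which makes lactate, stood at 355 and 280.4 and then at 521, 429.5 and 421 CPM. Its rise was the smallest of these 6 genes (0.60, SE 0.10, edgeR adjusted p = 0.00897). Eno2, the neuronal-type enolase, was low, at 7.595 and 7.09 and then 7.05, 7.31 and 8.72 CPM, and did not pass.

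Both lactate carriers rose. Slc16a3, the exporter MCT4 of strongly glycolytic cells, stood at 7.89 and 16.4 CPM in healthy and 38.8, 50.1 and 44.8 CPM in STA fibroblasts. Each STA hashtag held well over the level of its own well's healthy hashtag, by 4.91-fold in experiment 1 and 3.05- and 2.72-fold in the mild and severe hashtags of experiment 2 (log2 difference 1.85, SE 0.20, edgeR adjusted p = 0.00275). Slc16a1, the carrier MCT1, stood at 48.2 and 64.8 and then at 84.6, 97.9 and 85.4 CPM. The STA hashtags were higher by less than for Slc16a3 (0.65, SE 0.13, edgeR adjusted p = 0.0166). Pdk1, the kinase that holds pyruvate back from mitochondria, stood at 4.97 and 8.06 and then at 14.8, 14.8 and 17.1 CPM. It rose from a low level without overlap (1.25, SE 0.22, edgeR adjusted p = 0.0104). Bnip3 and Bnip3l, receptors for the removal of mitochondria, did not pass. Bnip3 stood at 45.0 and 35.1 and then at 43.3, 53.5 and 62.5 CPM, and Bnip3l at 126 and 119.6 and then at 107, 106 and 115 CPM. Bnip3 overlapped between the groups, and Bnip3l was lower in all 3 STA hashtags.

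Among the regulators and targets of HIF, single genes moved far and most did not pass. Hif1a, the oxygen-regulated subunit, stood at 147 and 171 CPM in healthy and 514, 461 and 436 CPM in STA fibroblasts. Within wells this was 3.50-fold in experiment 1 and 2.70- and 2.55-fold in experiment 2 (log2 difference 1.59, SE 0.13, edgeR adjusted p = 0.00128). Egln3, an oxygen-sensing hydroxylase that is itself a HIF target in many cells, stood at 6.72 and 7.73 and then at 0.964, 3.57 and 1.91 CPM. It fell by 2.04 on the log2 scale from a low level (SE 0.46, edgeR adjusted p = 0.0252). Egln1, the main hydroxylase, stood at 36.2 and 38.4 and then at 33.0, 49.95 and 45.4 CPM and did not pass. Angptl4, a secreted inhibitor of lipoprotein lipase induced by HIF and also by lipid-sensing receptors, had the largest difference of all members, from 34.8 and 42.5 to 308, 275 and 259 CPM. That was 8.85-fold in experiment 1 and 6.46- and 6.09-fold in the mild and severe hashtags of experiment 2 (log2 difference 2.88, SE 0.15, edgeR adjusted p = 0.000468). P4ha1, a subunit of the collagen prolyl hydroxylase, stood at 74.2 and 97.3 and then at 119, 142 and 137 CPM. It rose without overlap (0.60, SE 0.10, edgeR adjusted p = 0.0104).

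Vegfa, the angiogenic factor, differed more between experiments than between conditions, at 45.6 and 128 CPM in healthy and 65.9, 181 and 141 CPM in STA fibroblasts (log2 difference 0.43, SE 0.14, edgeR adjusted p = 0.0831). Ddit4, an inhibitor of the growth kinase complex mTORC1, also followed the experiment, at 9.64 and 40.6 and then at 34.2, 62.2 and 46.2 CPM (0.92, SE 0.30, edgeR adjusted p = 0.0768). Within each well both were higher with arthritis, but the groups overlapped across experiments. Ndrg1, a stress-responsive HIF target, stood at 302 and 267 and then at 189.6, 229.9 and 212 CPM (-0.43, SE 0.13, edgeR adjusted p = 0.0602), lower in each STA hashtag without passing. Adm, which encodes the vasodilator adrenomedullin, stood at 47.6 and 86.7 and then at 36.1, 71.2 and 111 CPM, and P4ha2 at 50.2 and 76.1 and then at 91.1, 79.7 and 91.2 CPM. Neither passed, nor did Ankrd37.

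**Figure D1:**
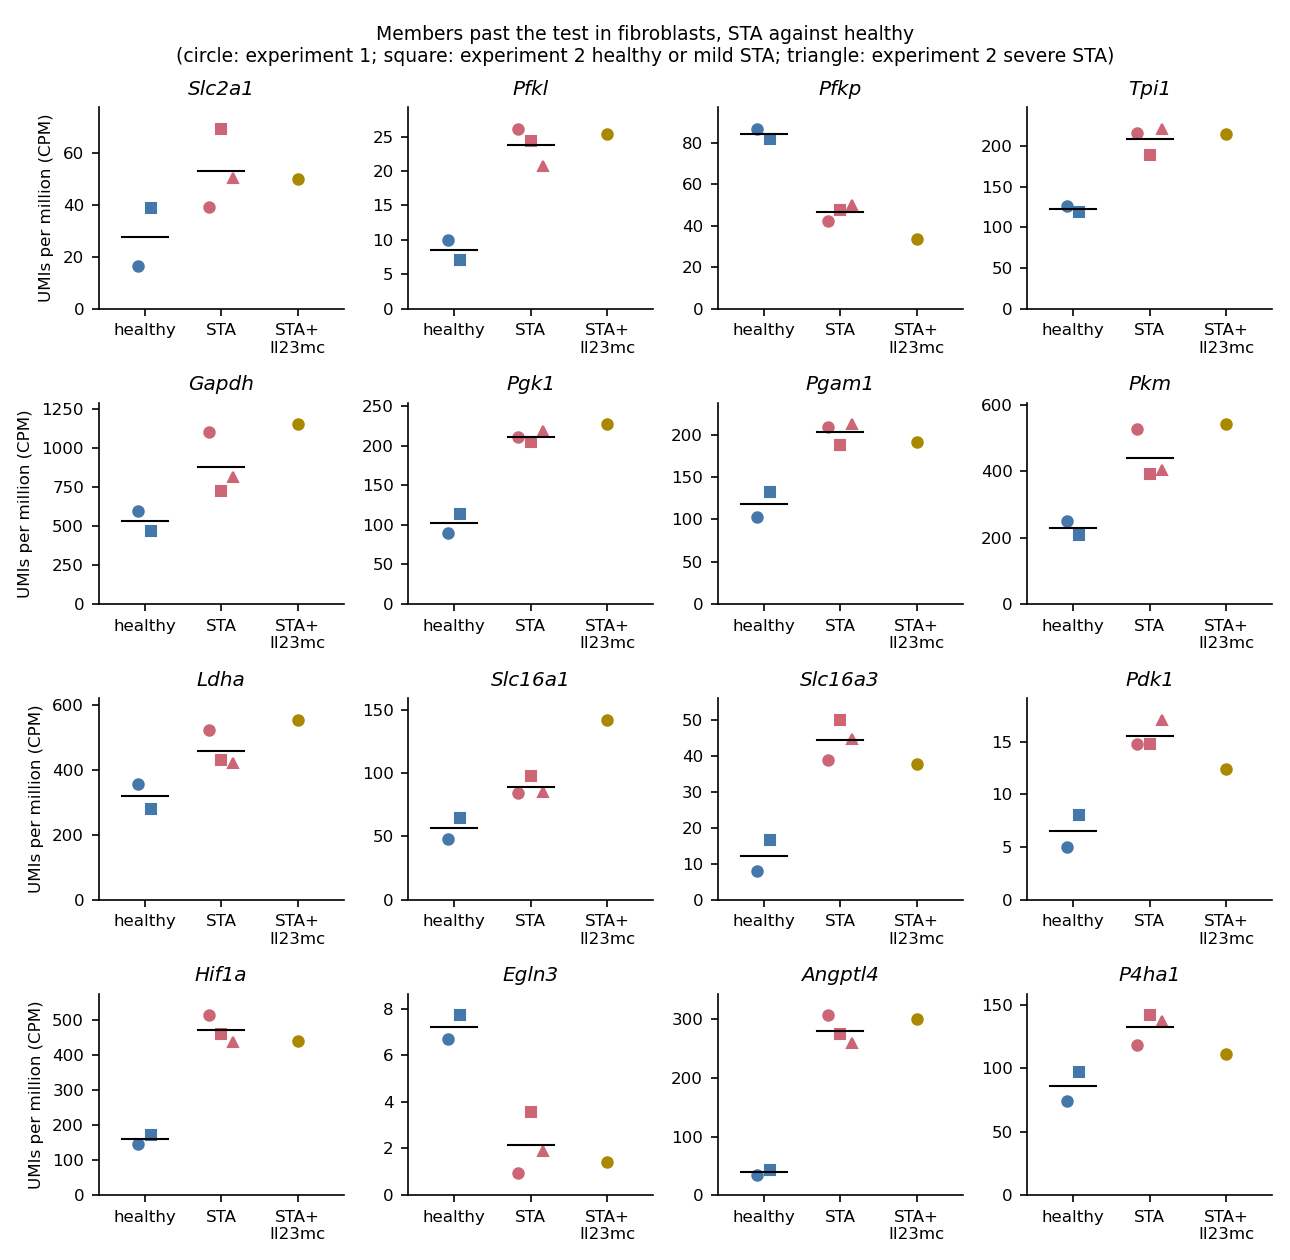
CPM (linear axis from 0) in fibroblasts for the 16 members past the test, 1 panel a gene, with 1 point per hashtag in healthy, STA and STA+Il23mc and a black line at the mean where there is more than 1; circles are experiment 1, squares healthy or mild STA of experiment 2 and triangles severe STA. The 3 STA points lie above both healthy points in all panels but those of Pfkp and Egln3, where they lie below, and Angptl4 runs from 34.8 and 42.5 CPM to 259 CPM or more.

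The calls in fibroblasts leaned on single libraries to differing degrees. Without the STA hashtag of experiment 1, 9 members rose and 1 fell, and Slc2a1, Pgam1, Slc16a1, Pdk1, P4ha1 and Egln3 lost their calls. Without the healthy hashtag of experiment 1, 12 rose and 1 fell, and without the term for experiment 6 rose and 1 fell. Healthy hashtags also had fewer UMIs per cell, with medians of 7558 and 10818 against 14558 to 17021 in STA, and the summed chondrocyte markers were at 110 and 148 CPM against 412, 330 and 460, with 4 of 5 higher. Osteoblast markers were at 292 and 107 CPM in healthy and 42.7, 73.4 and 37.5 in STA fibroblasts, with 3 of 5 lower. Muscle markers were at 34.8 and 47.7 CPM in healthy and 17.4, 23.8 and 26.3 in STA fibroblasts, with 3 of 3 tested lower. Markers of the lining were at 24050 and 3404 CPM in healthy and 6329, 8541 and 5877 in STA fibroblasts, and so differed widely between the 2 healthy hashtags. Of 13 immediate early and dissociation genes 5 fell and none rose, with sums of 14860 and 19130 CPM and then 10390, 15860 and 17250. The part of these cells and genes in the members' differences was not tested. Macrophage markers summed to 5.12 to 7.595 CPM and neutrophil markers to 6.45 to 27.3 CPM in all 6 hashtags. Ddx3y, a Y-chromosome gene, stood at 0.17 CPM in the mild STA hashtag and at 28.5 to 59.0 CPM in the others. The mild hashtag thus differed in sex from the hashtags it was tested with and against, and the part of sex was not tested.

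Other genes of the same pathways gave fewer calls. Of 31 further hypoxia targets tested, 7 rose and 1 fell. Lox, a cross-linker of collagen, stood at 226 and 215 CPM in healthy and 832, 900.4 and 729.8 CPM in STA fibroblasts (log2 difference 1.92, edgeR adjusted p = 0.000692). Plod2, a collagen lysyl hydroxylase, rose by 1.69, edgeR adjusted p = 0.00432. Of 19 other glycolysis and pyruvate genes, 3 rose, among them Bsg, the chaperone of the lactate carriers (0.54, edgeR adjusted p = 0.0119), Pcx, pyruvate carboxylase (1.28, edgeR adjusted p = 0.0347), and Pdk3, another pyruvate dehydrogenase kinase (1.13, edgeR adjusted p = 0.0194). Of 12 genes of the HIF machinery, Elob rose (0.37, edgeR adjusted p = 0.046), and Arnt2 (-1.68, edgeR adjusted p = 0.0108) and Ep300 (-0.49, edgeR adjusted p = 0.029) fell. In the pentose phosphate branch, with 7 tested, Pgls rose (0.44, edgeR adjusted p = 0.0272) and G6pdx, its entry enzyme, fell (-0.66, edgeR adjusted p = 0.0264). Among 12 genes of glucocorticoid and ATF4 responses, pathways that also act on Ddit4, 2 rose and 4 fell, led by Zbtb16 (-2.29, edgeR adjusted p = 0.00418), Tsc22d3 (-1.57, edgeR adjusted p = 0.000558) and Klf9 (-1.15, edgeR adjusted p = 0.00143), all known glucocorticoid-induced genes. Sgk1, also induced by glucocorticoids, rose (0.91, edgeR adjusted p = 0.0112), and Fkbp5 (0.09, edgeR adjusted p = 0.743) and Per1 (-0.04, edgeR adjusted p = 0.859) did not pass. Of 7 MYC and mTORC1 regulators none rose, and Mtor (-0.72, edgeR adjusted p = 0.0321) and Myc (-0.60, edgeR adjusted p = 0.0301) fell.

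The fibroblast sums mix classes whose shares differ between conditions. The authors' annotation separates Mmp3+, Il6+, Pi16+ and smaller classes. Mmp3+ cells were 10 of 408 (2.45%) and 29 of 268 (10.8%) of the healthy fibroblasts and 69.5%, 49.1% and 40.6% of the STA fibroblasts, and gave 5.25% and 14.4% against 80.2%, 68.2% and 59.0% of the UMIs. A median of 13325 to 27183 UMIs per Mmp3+ cell stood against 6071 to 10887 per Il6+ or Pi16+ cell. Pi16+ cells went from 50.25% and 47.0% to 8.48%, 20.5% and 22.3% of the cells. Lining cells were 49 of 408 in the healthy hashtag of experiment 1, with 695093 of its 3423349 UMIs, and fewer than 20 in that of experiment 2. As classes were made from the expression of all genes, their order is given as a description, over the 5 hashtags with at least 20 Mmp3+ cells. A bulk-like sum cannot tell fewer cells of a class from less RNA per cell.

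Mmp3+ cells held higher levels of most members than Il6+ and Pi16+ cells. In 5 of 5 hashtags, 19 of 34 members were higher in Mmp3+ than in Il6+ cells and 23 than in Pi16+ cells. Among genes with at least 50 UMIs in the classes compared, 33 members included, the same held for 24.0% of 12213 and 12.9% of 12197 genes, and 11.2% and 18.4% were lower in each hashtag. Slc16a3 had a median of 60.8 CPM in Mmp3+ cells, against 3.06 in Il6+ and 2.11 in Pi16+ cells, higher in each hashtag. Pkm had medians of 551, 141 and 179 CPM in the same order, Pgk1 246, 79.8 and 87.4, and Hif1a 553, 311 and 187. Hk2 and Adm were the exceptions against Il6+ cells, lower in Mmp3+ cells in all 5 hashtags. The median of Hk2 was 286 CPM in Mmp3+ and 828 in Il6+ cells, and that of Adm 41.3 in Mmp3+, 145.5 in Il6+ and 124 in Pi16+ cells. Against Pi16+ cells, Adm and Bnip3l were lower in Mmp3+ cells in all 5 hashtags. Smaller classes reached like levels. In the STA hashtag of experiment 1, the 54 Lining cells stood at 672 CPM for Pkm, 601 for Ldha and 52.9 for Slc16a3, each above its Mmp3+ cells. In the healthy hashtag of experiment 2, 26 chondrocytes, which are not part of the fibroblast sums, stood at 543 CPM for Ldha and 77.0 for Slc16a3, also above its Mmp3+ cells.

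Within classes, Angptl4 was higher in STA than in healthy hashtags in each of Il6+, Pi16+ and Mmp3+ cells. Angptl4 in Il6+ cells stood at 20.4 and 16.3 CPM in healthy and 239, 147 and 145 CPM in STA hashtags. In Pi16+ cells it stood at 19.0 and 9.16 and then at 189, 55.3 and 38.4 CPM. In Mmp3+ cells the healthy hashtag of experiment 2 held 175 CPM and the STA hashtags 333, 352 and 358 CPM. For Slc16a3 and Pgk1 in Mmp3+ cells the healthy value lay inside the range of the STA hashtags: Slc16a3 stood at 69.4 CPM in the healthy hashtag of experiment 2 and at 43.3, 60.8 and 72.1 CPM with arthritis, and Pgk1 at 246 and then at 232, 245 and 299 CPM. Pkm in Mmp3+ cells stood at 385 and then at 567.6, 445 and 551 CPM, and Ldha at 362 and then at 549, 476 and 521 CPM, higher in each STA hashtag. Hif1a in Mmp3+ cells stood at 315 and then at 561, 575 and 553 CPM. These healthy Mmp3+ values rest on 29 cells of 1 hashtag.

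Fitted within single classes, as was tried once the data had been seen, fewer members passed, as did fewer of all genes. In Il6+ cells 28 members were tested, and Angptl4 rose (log2 difference 3.24, edgeR adjusted p = 4.79e-06) and Ndrg1 fell (-0.95), where 1.21% of 9325 genes rose and 0.997% fell. In Pi16+ cells 30 were tested and Angptl4 rose (2.94), where 0.44% of 9766 genes rose and 0.451% fell. With all fibroblasts but the Mmp3+ cells, 32 were tested and Angptl4 (2.64) and Hif1a (0.91) rose, where 0.76% of 11977 genes rose and 0.793% fell. Hif1a in Il6+ cells stood at 194 and 209 CPM in healthy and 375, 275 and 340 CPM in STA hashtags. It was higher in every STA hashtag without passing (0.62, edgeR adjusted p = 0.106). Slc2a1, Gapdh, Ldha, Slc16a1 and Pdk1 had the opposite sign in Il6+ cells, as did Slc2a1 and Pkm in Pi16+ cells, at -0.20 to -0.03 but for Pdk1 (-0.68). These fits have fewer UMIs than the sums of all fibroblasts, and the share of Mmp3+ cells and the level within a cell cannot be told apart in the latter.

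**Figure D2:**
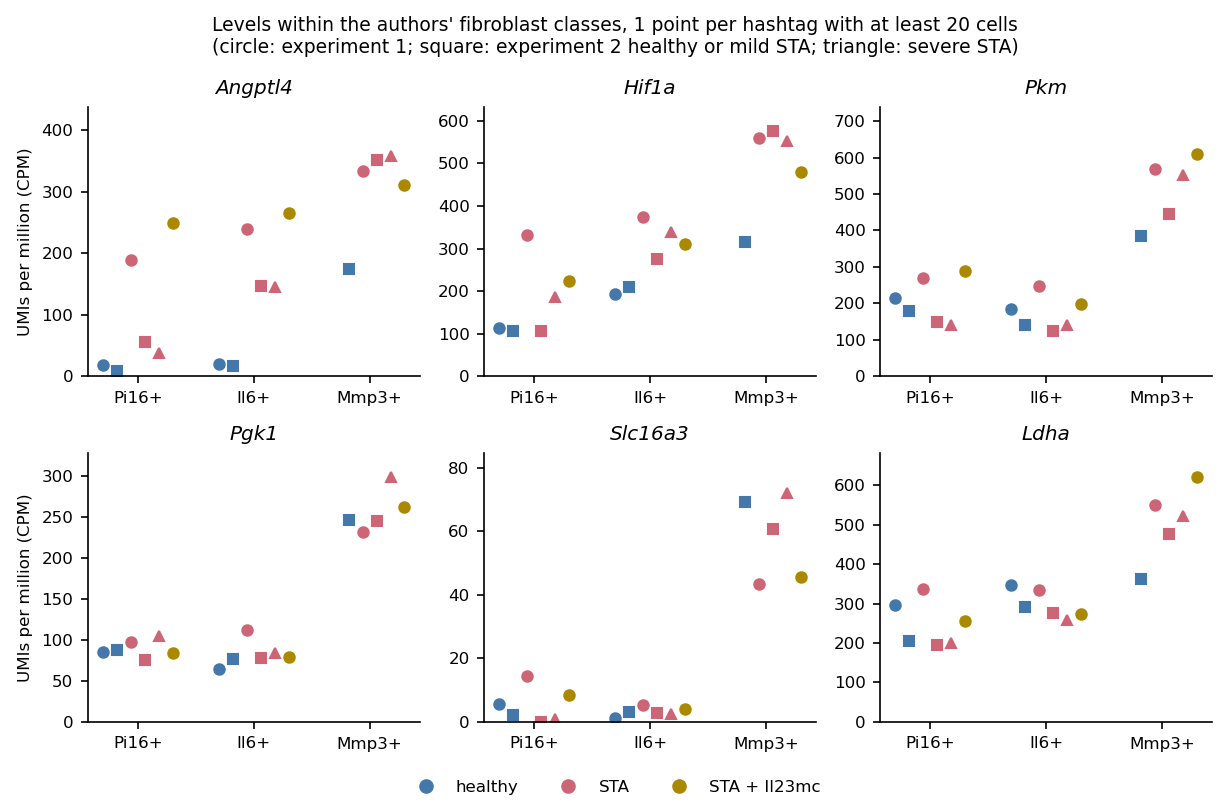
CPM (linear axis from 0) of 6 members within the authors' Pi16+, Il6+ and Mmp3+ fibroblast classes, 1 point per hashtag with at least 20 cells of the class; colour gives the condition, and circles, squares and triangles experiment 1, healthy or mild of experiment 2 and severe. Pkm, Pgk1 and Slc16a3 are higher in Mmp3+ cells than in both other classes in each hashtag, with Slc16a3 medians of 60.8 against 3.06 and 2.11 CPM, while Angptl4 separates healthy from arthritic points in all 3 classes.

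Adding Il23mc was measured with 1 fibroblast hashtag, against the STA hashtag of the same well, so there is no replicate and no test. Of 31 members with at least 50 UMIs in either, 2 were past 1.5-fold higher and none lower, where 4.18% of 10812 genes were higher and 11.1% lower. The median log2 ratio was -0.01 over members and -0.24 over all these genes. Adm stood at 36.1 CPM in STA and 90.2 with Il23mc, a ratio of 2.498 with a 95% exact interval of 2.27 to 2.75 that covers counting error only. Slc16a1 stood at 84.6 and 142 CPM, a ratio of 1.68 (1.58 to 1.80). Most members were close in the 2 hashtags: Hif1a stood at 513.5 and 438 CPM, Angptl4 at 307.5 and 301, and Gapdh at 1104 and 1152. In experiment 2 the severe hashtag was past 1.5-fold above the mild one for 1 of 29 members and below for none, against 3.34% and 2.22% of 9549 genes. That member was again Adm, at 71.2 CPM in mild and 111 in severe STA, a ratio of 1.57 (1.39 to 1.76). The Y-chromosome gene Ddx3y stood at 0.17 CPM in the mild and 41.7 CPM in the severe hashtag. These 2 hashtags thus also differed in the sex of their animals, and its part was not tested.

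In ILC2, arthritis was accompanied by 2 calls, both upward. Of 27 members tested, Ldha and Hif1a rose in STA against healthy mice and none fell, where 1.63% of the 7170 genes tested rose and 1.13% fell. The median log2 difference was 0.08 over members and -0.01 over all genes tested. Hif1a stood at 189, 263 and 220.3 CPM in the 3 healthy mice and at 363, 327 and 356 CPM in the 3 STA mice, or 224 ± 37.0 and 348 ± 19.1 (SD, n = 3 each). All STA mice lay above all healthy ones (0.70, SE 0.15, edgeR adjusted p = 0.0201). Ldha stood at 749.6, 844 and 781 and then at 1107, 1180 and 1013 CPM, or 791.5 ± 48.1 and 1100 ± 83.7 (SD, n = 3 each). Its groups did not overlap either (0.55, SE 0.13, edgeR adjusted p = 0.0269). The calls were not robust to single mice: leaving out any of the 6 took the edgeR adjusted p of Ldha to between 0.0506 and 0.168, and leaving out any but healthy mouse 2 took that of Hif1a to between 0.0659 and 0.116. The labels of the STA well's classes were transferred from the annotated wells, since the authors' table does not cover it.

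The other members of each role in ILC2 did not pass. Gapdh stood at 1196, 1174 and 1348 CPM in healthy and 947, 998 and 988 CPM in STA mice (-0.26, SE 0.14, edgeR adjusted p = 0.401), so all STA mice lay below all healthy ones while Ldha lay above. Ddit4 stood at 36.5, 32.5 and 40.0 and then at 24.0, 13.3 and 18.2 CPM (-0.89, SE 0.30, edgeR adjusted p = 0.146), again without overlap. It passed as lower when the experiment 2 hashtags were added with an experiment term (-0.95) and when cells with a Cd3d or Cd3e UMI were left out (-1.02). Egln3 stood at 16.4, 22.7 and 31.1 and then at 43.3, 39.2 and 34.4 CPM (0.79, SE 0.22, edgeR adjusted p = 0.0777). Ndrg1 varied over a wide range within each group, at 25.2, 101 and 80.9 and then at 19.2, 53.3 and 37.4 CPM. Aldoa stood at 348, 292 and 297 and then at 363, 392 and 354 CPM, Gpi1 at 139.6, 161 and 166 and then at 159, 144 and 146 CPM. The glucose transporters were low: Slc2a1 stood at 30.2, 31.0 and 22.2 and then at 26.0, 21.7 and 36.4 CPM, and Slc2a3 at 26.4, 17.2 and 15.99 and then at 10.6, 10.00 and 17.2 CPM. The lactate carrier Slc16a3 stood at 5.03, 6.40 and 10.7 and then at 6.73, 7.50 and 8.08 CPM, and Slc16a1 at 2.52, 11.8 and 8.00 and then at 4.81, 14.2 and 11.1 CPM. Among the mitochondrial genes Bnip3l stood at 104, 107 and 111 and then at 100, 90.8 and 94.96 CPM, lower in all 3 STA mice, and Pdk1 at 20.1, 17.7 and 8.00 and then at 14.4, 14.99 and 19.2 CPM, with overlap. Neither passed, nor did Hk1, Hk2, Pfkl, Pfkp, Pfkfb3, Tpi1, Pgk1, Pgam1, Pkm, Egln1, Vegfa, Adm and P4ha1. Pfkfb4, Aldoc, Eno2, Bnip3, Angptl4, P4ha2 and Ankrd37 were too low to test. Groups did not overlap for 9 of 27 members (33.3%) and for 23.5% of all genes tested. STA mouse 2 stood apart in its mast cell markers, at 1810 CPM against 3.55 to 29.8 in the other 8 mice, and the part of such cells was not tested.

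Experiment 2 gave 1 healthy ILC2 hashtag with a mild and a severe one in the same well, without replicates. Healthy cells there carry the authors' class, while the STA cells were classed by transfer, and of this well's annotated cells that the transfer put in ILC2, 74.6% were ILC2 in the authors' table. Hif1a stood at 247 CPM in healthy and 329.7 and 333 CPM in mild and severe STA. Ldha stood at 809 CPM and at 855 and 930.4 CPM. Both were thus higher in both STA hashtags, by less than in experiment 1. Past 1.5-fold, 3 of 26 members were lower and none higher in mild STA, where 5.42% of 6536 genes were lower and 1.74% higher. They were Ddit4 (87.3 to 41.2 CPM), Vegfa (24.6 to 14.3 CPM) and Hk1 (35.8 to 23.4 CPM). In severe STA 2 members were lower and none higher, against 4.41% and 2.74% of 6683 genes, namely Ddit4 at 43.5 CPM and Ndrg1, from 61.2 to 27.6 CPM.

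With Il23mc added to STA, Ddit4 was the member that changed in ILC2. It stood at 24.0, 13.3 and 18.2 CPM in the STA and 110.3, 84.6 and 48.6 CPM in the STA+Il23mc mice, which lay above all STA mice (2.16, SE 0.28, edgeR adjusted p = 0.00042). No other member of the 27 rose and none fell, where 1.07% of the 7170 genes rose and 0.558% fell, and the call held in each of the 12 alternatives run. The comparison of STA+Il23mc with healthy mice shares its mice with the contrasts above, so its values stand beside them. Against healthy mice 3 members rose and none fell, where 4.76% of genes rose and 2.9% fell. Hif1a stood at 529, 415 and 387 CPM with Il23mc (1.08, SE 0.15, edgeR adjusted p = 0.000381), Ldha at 968, 1019 and 1063 CPM (0.47, SE 0.13, edgeR adjusted p = 0.0329), and Ddit4 at the values above (1.27, SE 0.25, edgeR adjusted p = 0.00479). For each, all 3 STA+Il23mc mice lay above the 3 healthy mice of experiment 1. The healthy ILC2 hashtag of experiment 2, not part of this fit, stood at 247 CPM for Hif1a and 809 for Ldha, below all 3. For Ddit4 it stood at 87.3 CPM, above STA+Il23mc mice 2 and 3. Cells with a Cd3d or Cd3e UMI made up 33.0%, 12.5% and 6.20% of ILC2 in the STA+Il23mc mice and 1.20% to 1.64% in healthy mice, in a sort that gated CD3 out. Without them Ddit4 no longer passed against healthy mice (0.56, edgeR adjusted p = 0.078), and Gapdh passed as lower (-0.53, edgeR adjusted p = 0.0033). With 1 rule for hashtag calls and classes in all wells Ldha and Ddit4 lost their calls against healthy mice and Slc16a3 gained one.

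**Figure D3:**
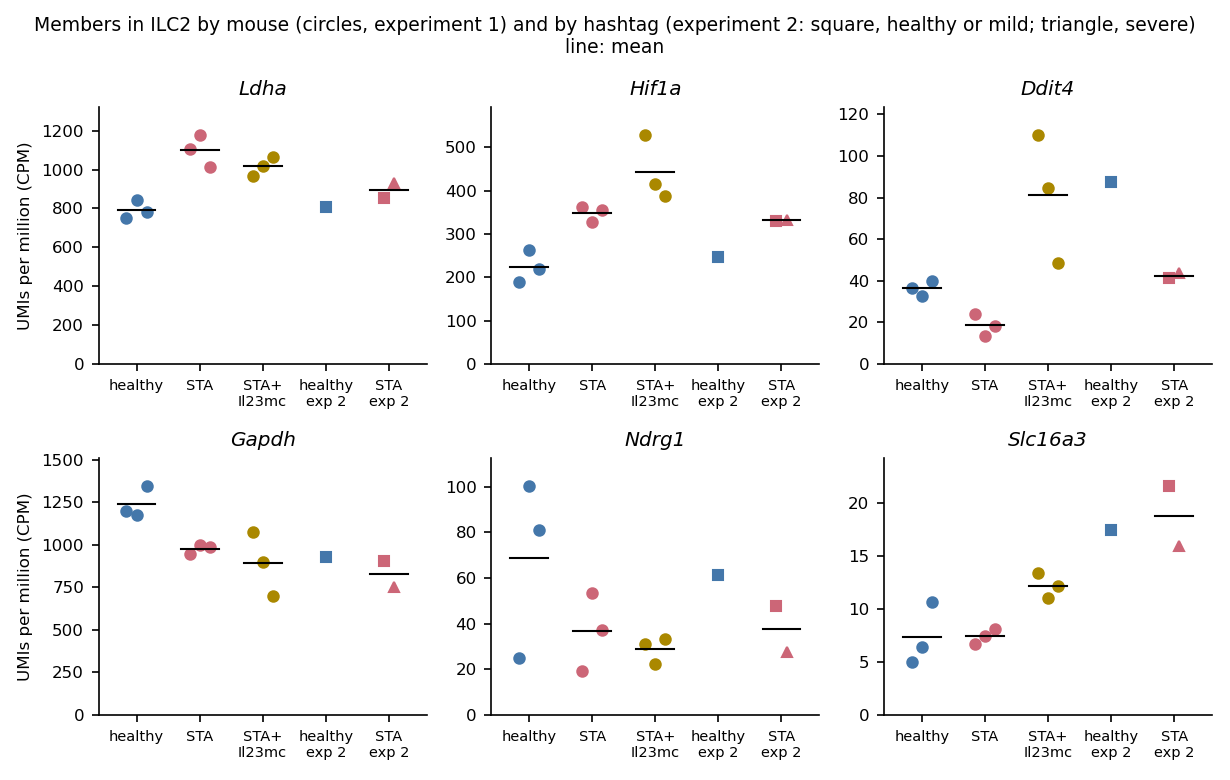
CPM (linear axis from 0) in ILC2 of 6 members, 1 circle per mouse of experiment 1 (3 healthy, 3 STA, 3 STA+Il23mc) and 1 square or triangle per hashtag of experiment 2, with a black line at the mean of a group. Hif1a and Ldha lie higher in STA than in healthy mice, Gapdh and Ddit4 lower, and Ddit4 is at 48.6 to 110 CPM with Il23mc.

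Of the other pathway genes in ILC2, few passed. In STA against healthy mice Epas1, which encodes another HIF alpha subunit, stood at 6.29, 3.94 and 2.67 CPM in healthy and 14.4, 13.3 and 14.1 CPM in STA mice and rose without overlap (log2 difference 1.82, edgeR adjusted p = 0.0128), 1 of 10 genes of the HIF machinery tested. Bhlhe40, a HIF-induced repressor, was the 1 of 17 other hypoxia targets that rose (0.94, edgeR adjusted p = 0.0196). Tsc22d3, a glucocorticoid-induced gene, stood at 278, 327 and 385 and then at 122, 117 and 122 CPM and was the 1 of 7 glucocorticoid and ATF4 genes that fell (-1.37, edgeR adjusted p = 0.000175). Tsc1, a brake on mTORC1, was the 1 of 7 MYC and mTORC1 regulators that fell (-1.14, edgeR adjusted p = 0.0274). None of 10 other glycolysis genes passed, Mpc1 being the most abundant (-0.20, edgeR adjusted p = 0.663), and none of 7 pentose phosphate genes, the most abundant being Taldo1 (0.04, edgeR adjusted p = 0.944). With Il23mc against STA, Tsc22d3 rose (1.26, edgeR adjusted p = 0.000371), as Ddit4 did, and no gene of the other lists passed. In STA+Il23mc against healthy mice, Epas1 (2.15, edgeR adjusted p = 0.00109) and Bhlhe40 (0.96, edgeR adjusted p = 0.00823) were higher, as they were in STA alone. Also higher were Hilpda, a lipid-droplet HIF target (1.47, edgeR adjusted p = 0.000633), and Fkbp5 (0.83, edgeR adjusted p = 0.0346).

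The authors' ILC2 classes differed in Ldha in the same order in all 7 hashtags with enough cells, given as a description since classes were made from expression. Median Ldha was 547 CPM in ILC2-1, 787 in ILC2-2 and 1300 in ILC2-3, and each step held in 7 of 7 hashtags. Hif1a had medians of 131, 224 and 471 CPM in the same order, with ILC2-3 the highest in 7 of 7 hashtags and ILC2-1 below ILC2-2 in 6 of 7. Ddit4 went the opposite way, with 175 CPM in ILC2-1 against 31.0 in ILC2-2 in 7 of 7 hashtags and 41.1 in ILC2-3 in 6 of 7. Gapdh was higher in ILC2-3 than in ILC2-1 in 6 of 7 hashtags, with medians of 991 and 979 CPM. In the 4 healthy hashtags it stood at 991 to 1533 against 832 to 1071 CPM. In the STA+Il23mc mice it stood at 800.5, 937 and 669 against 1387, 908 and 660 CPM. The ILC2 sums mix these classes, so the share of a class and the level within a cell cannot be told apart in them. The part of the class shares in the differences between conditions was not tested.

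In cells annotated ILC3, STA and Il23mc together were accompanied by higher RNA of the glucose transporter Slc2a3, of several glycolytic enzymes, of Hif1a and of Ddit4 than in healthy mice. Of 26 members tested, 13 rose and 1 fell against healthy mice, where 12.8% of the 6953 genes tested rose and 11.5% fell. The median log2 difference was 0.61 over members and -0.01 over all genes tested. Groups did not overlap for 12 of 26 members (46.2%), for 11 of the 14 past the test, and for 32.5% of all genes tested. These cells differed in kind as well. In the 3 STA+Il23mc mice 410 of 462 (88.7%), 180 of 221 (81.5%) and 7 of 28 (25%) held a Cd3d or Cd3e UMI, against 0%, 1.33% and 7.13% in healthy mice, although the sort gated out CD3, TCRb and TCRgd. Of the T cell list 6 of 7 genes rose, with a summed level of 922 to 1077 CPM in healthy and 4924, 4705 and 1601 CPM in the STA+Il23mc mice, and Trdc, a gamma delta T cell receptor gene, stood at 656, 571 and 25.3 CPM there. Of the ILC3 list 7 of 8 rose, the exception being Ccr6, which fell, with a summed level of 554 to 724 CPM in healthy and 5402, 8271 and 2511 CPM in the STA+Il23mc mice. In cells without a Cd3d or Cd3e UMI the ILC3 list stood at 674, 716 and 534 CPM in healthy mice. In such cells of the STA+Il23mc mice it stood at 753, 700 and 2632 CPM. Over all cells annotated ILC3, the ILC2 list stood at 7300 to 8213 CPM in healthy and at 5086, 5497 and 7230 CPM in the STA+Il23mc mice. Il1rl1, Gata3, Il13 and Il5 fell, 4 of 9 tested. Of 13 immediate early and dissociation genes 2 rose and 5 fell, with sums of 4824 to 5643 CPM in healthy and 3892 to 4778 CPM in the STA+Il23mc mice. The part of these markers in the members' differences was not tested. STA mice without Il23mc are not part of this contrast.

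Slc2a3, the high-affinity transporter GLUT3, stood at 9.14, 11.3 and 12.8 CPM in healthy and 78.8, 84.1 and 25.3 CPM in the STA+Il23mc mice. Mice 1 and 2 were far above mouse 3, which was still above all healthy mice (2.76, SE 0.27, edgeR adjusted p = 1.69e-05). Mouse 3 gave only 3 UMIs of Slc2a3, 4 of Pfkl and 3 of Hk1, so its place for these genes rests on few counts. Pfkp stood at 73.1, 69.3 and 96.5 and then at 242, 259.6 and 169 CPM. All STA+Il23mc mice lay above healthy ones (1.59, SE 0.19, edgeR adjusted p = 9.29e-05), the reverse of its direction in STA fibroblasts. Pfkl stood at 20.6, 12.6 and 17.3 and then at 35.2, 37.2 and 33.7 CPM. It rose without overlap (1.18, SE 0.24, edgeR adjusted p = 0.00315). Aldoa stood at 523, 425 and 519.7 and then at 763, 794 and 674 CPM. Its 3 treated mice were close together (0.68, SE 0.15, edgeR adjusted p = 0.00721). Gpi1 stood at 183, 155 and 162 and then at 226, 281 and 194 CPM, and Hk1, the constitutive hexokinase, at 25.1, 31.5 and 30.5 and then at 44.0, 51.3 and 25.3 CPM. Both rose, Gpi1 by 0.61, SE 0.18, edgeR adjusted p = 0.0243 and Hk1 by 0.69, SE 0.21, edgeR adjusted p = 0.0299, the latter with mouse 3 inside the healthy range. Slc2a1, Hk2 and Pfkfb3 did not pass.

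Further along the chain, Tpi1 stood at 77.7, 86.9 and 138 CPM in healthy and 369, 325 and 160.1 CPM in STA+Il23mc mice. Mouse 3 lay close to the highest healthy mouse (1.62, SE 0.26, edgeR adjusted p = 0.000759). Pkm stood at 331, 374 and 412 and then at 846, 818 and 396 CPM. Mouse 3 lay inside the healthy range, so the groups overlapped (0.99, SE 0.23, edgeR adjusted p = 0.00843). Pgam1 stood at 73.1, 58.0 and 88.2 and then at 166, 149.5 and 101 CPM. It rose without overlap (1.07, SE 0.20, edgeR adjusted p = 0.00216). Slc16a3, the lactate exporter, stood at 11.4, 7.56 and 22.6 and then at 87.6, 67.7 and 42.1 CPM. All treated mice were higher, mouse 3 with 5 UMIs (2.22, SE 0.29, edgeR adjusted p = 0.000165). Gapdh stood at 1704, 1735 and 2071 and then at 2245, 2290 and 1331 CPM, and Ldha at 736, 800 and 867 and then at 985, 971 and 683 CPM. Neither of these abundant members passed, and their groups overlapped.

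Hif1a stood at 281, 266 and 294 CPM in healthy and 1091, 949.9 and 758 CPM in STA+Il23mc mice. Every treated mouse was far above all healthy ones (1.81, SE 0.17, edgeR adjusted p = 1.36e-05). Ddit4 stood at 29.7, 25.2 and 46.4 and then at 187, 211 and 126 CPM. It too was far higher in all 3 (2.41, SE 0.24, edgeR adjusted p = 1.82e-05), while the healthy ILC3 hashtag of experiment 2 stood at 75.5 CPM. Bnip3 stood at 11.4, 1.26 and 11.7 and then at 23.8, 20.1 and 25.3 CPM (1.37, SE 0.39, edgeR adjusted p = 0.0232), higher in all 3 from a low level. Vegfa was the member that fell, from 38.8, 13.9 and 20.4 to 3.67, 6.69 and 16.9 CPM (-1.98, SE 0.45, edgeR adjusted p = 0.0073), with mouse 3 inside the healthy range. In treated mouse 3 Bnip3 rested on 3 UMIs and Vegfa on 2. Pgk1, Slc16a1, Bnip3l, Egln1, Egln3, Ndrg1 and P4ha1 did not pass. Pfkfb4, Aldoc, Eno2, Pdk1, Angptl4, Adm, P4ha2 and Ankrd37 were too low to test.

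Left with the cells without a Cd3d or Cd3e UMI, 2 members rose and 2 fell of 16 tested, where 5.95% of 3728 genes rose and 4.02% fell, from 52, 41 and 21 cells in the STA+Il23mc mice. Neutrophil markers summed to 429 CPM in these cells of STA+Il23mc mouse 1 and to 0 to 13.0 CPM in the other sums, and their part was not tested. Hif1a stood at 281, 266 and 305 CPM in healthy and 801, 512 and 722 CPM in treated mice and rose by 1.31 (edgeR adjusted p = 0.000121). Ddit4 stood at 29.7, 25.6 and 46.5 and then at 115, 129.7 and 58.2 CPM and rose by 1.58 (edgeR adjusted p = 0.00547). Gapdh stood at 1704, 1727 and 2064 and then at 1188, 1102 and 1106 CPM and fell by 0.63 (edgeR adjusted p = 0.0047), and Hk2 fell by 1.25. Aldoa, Pgam1 and Pkm turned to slightly lower values, and the differences of Gpi1 (0.11), Pfkp (0.48) and Tpi1 (0.25) were smaller and did not pass. For Hif1a and Ddit4 all treated mice were above all healthy mice of experiment 1 in these cells too, and for Gapdh all were below. Such cells of the healthy hashtag of experiment 2 stood at 204 CPM for Hif1a and 1297 for Gapdh. For Ddit4 they stood at 75.2 CPM, above treated mouse 3. The treated sums held 191131, 154202 and 85866 UMIs, so low members such as Ddit4 and Hk2 rest on few counts there. With single mice left out, 8 rose without STA+Il23mc mouse 2, 9 rose and none fell without mouse 1, and 16 rose without mouse 3.

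**Figure D4:**
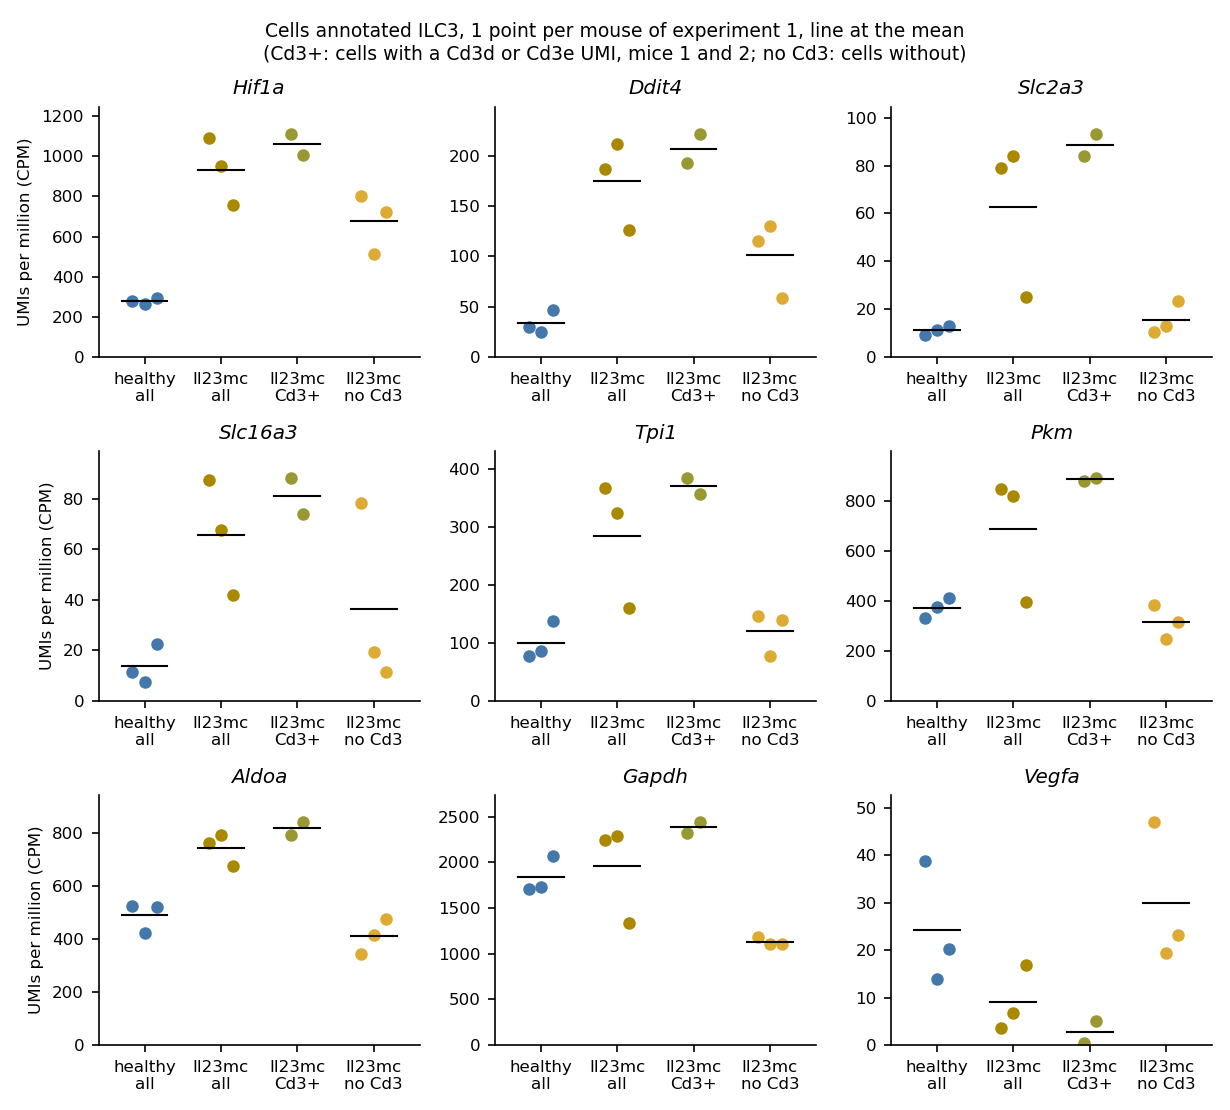
CPM (linear axis from 0) of 9 members in cells annotated ILC3, 1 point per mouse of experiment 1 and a black line at the mean: all cells of healthy mice, all cells of STA+Il23mc mice, then the latter split into cells with a Cd3d or Cd3e UMI (mice 1 and 2) and cells without (mice 1 to 3). Hif1a and Ddit4 stay above these healthy mice of experiment 1 in the cells without. Pkm, Aldoa and Gapdh are high in the cells with a Cd3 UMI and not in those without.

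The other pathway lists in these cells moved in both directions. Of 16 further hypoxia targets 6 rose and 2 fell, the largest differences being those of Pgm1, phosphoglucomutase (1.79, edgeR adjusted p = 0.0132), Gbe1, the glycogen branching enzyme (-1.64, edgeR adjusted p = 0.00426), and Plod2 (-1.63, edgeR adjusted p = 0.013). Of 10 other glycolysis genes Bsg rose (0.76, edgeR adjusted p = 0.0082) and Pdha1, a subunit of pyruvate dehydrogenase, fell (-0.68, edgeR adjusted p = 0.0137). Of 11 genes of the HIF machinery 3 rose, among them Arnt2 (2.10, edgeR adjusted p = 0.00207) and Egln2 (1.07, edgeR adjusted p = 0.0146), and Cul2 fell (-0.69, edgeR adjusted p = 0.0435). No pentose phosphate gene of 7 passed, the most abundant being Taldo1 (-0.32, edgeR adjusted p = 0.176). Of 8 glucocorticoid and ATF4 genes Zbtb16 rose (3.95, edgeR adjusted p = 1.65e-05), and Klf9 (-1.18, edgeR adjusted p = 0.000859) and Per1 (-0.60, edgeR adjusted p = 0.04) fell. Zbtb16 is also a factor of innate-like T cells. Of 8 MYC and mTORC1 regulators none rose, and Mycn (-1.70, edgeR adjusted p = 0.00946), Rptor (-1.36, edgeR adjusted p = 0.00387) and Rheb (-0.62, edgeR adjusted p = 0.0148) fell.

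Healthy ILC3 and ILC2 came from the same hashtags and wells, so their levels can be set side by side within 4 hashtags, as a description. In all 4, 15 of 34 members were higher in ILC3 and 3 were lower. Among 9271 genes with at least 50 UMIs in both types together, 31 members included, 23.5% were higher and 11.7% lower in all 4. Gapdh had a median of 1720 CPM in ILC3 and 1185 in ILC2, Pkm 393 and 259.8, and Hk2 65.9 and 43.8. Slc2a3, Pdk1 and Adm were lower in ILC3 in all 4, with Slc2a3 at 12.1 and 20.3 CPM. Ldha did not separate the 2 types, at 776.5 and 795 CPM.

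Healthy fibroblasts and healthy ILC2 differed in which members of the same steps were high, in a contrast of sorted populations in separate wells. Of 33 members tested, 14 were higher and 10 lower in fibroblasts, against 34.9% and 27.7% of the 11138 genes tested, so the share of members past the test was near that of all genes. ILC2 values are given for mice 1 to 3 and then the experiment 2 hashtag, and the number in brackets is the log2 difference. At entry, Slc2a3 was at 5.55 and 4.51 CPM in fibroblasts and 26.4, 17.2, 15.99 and 23.3 CPM in ILC2 (-2.18, edgeR adjusted p = 2.21e-05). Hk2 was at 321 and 468 CPM in fibroblasts and 28.9, 49.7, 53.3 and 38.0 CPM in ILC2 (3.02, edgeR adjusted p = 3.05e-09). Hk2 RNA was thus far more abundant in fibroblasts and the GLUT3 transporter in ILC2, with no overlap in either. Gpi1 was at 123 and 111 CPM in fibroblasts and 139.6, 161, 166 and 166 CPM in ILC2 (-0.59, edgeR adjusted p = 0.00704). Pfkl was at 9.93 and 7.09 CPM in fibroblasts and 12.6, 11.8, 16.9 and 26.3 CPM in ILC2 (-1.23, edgeR adjusted p = 0.00426). Pfkfb4, which sets the activator of phosphofructokinase, was at 9.06 and 7.41 CPM in fibroblasts and 1.26, 0, 0.888 and 3.67 CPM in ILC2 (1.95, edgeR adjusted p = 0.00903). The first pair was higher in ILC2 and the last gene in fibroblasts.

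In the triose steps the direction differed by enzyme. Gapdh was at 593 and 468 CPM in fibroblasts and 1196, 1174, 1348 and 926 CPM in ILC2 (-1.17, edgeR adjusted p = 1.6e-05). Pgk1 was at 89.4 and 114 CPM in fibroblasts and 165, 175, 239 and 149 CPM in ILC2 (-0.95, edgeR adjusted p = 0.000819). Ldha was at 355 and 280.4 CPM in fibroblasts and 749.6, 844, 781 and 809 CPM in ILC2 (-1.45, edgeR adjusted p = 3.91e-06). These 3 genes were higher in every ILC2 hashtag than in either fibroblast hashtag. Tpi1 was at 126 and 118 CPM in fibroblasts and 56.6, 46.3, 76.4 and 58.2 CPM in ILC2 (0.92, edgeR adjusted p = 0.000436). Pgam1 was at 103 and 133 CPM in fibroblasts and 36.5, 34.0, 52.4 and 52.0 CPM in ILC2 (1.20, edgeR adjusted p = 3.2e-05). Eno2 was at 7.595 and 7.09 CPM in fibroblasts and 1.26, 0.493, 0.888 and 0.862 CPM in ILC2 (2.95, edgeR adjusted p = 0.000253). These were higher in fibroblasts. Slc16a1 was at 48.2 and 64.8 CPM in fibroblasts and 2.52, 11.8, 8.00 and 9.27 CPM in ILC2 (2.48, edgeR adjusted p = 7.08e-07), higher in fibroblasts. Pdk1 was at 4.97 and 8.06 CPM in fibroblasts and 20.1, 17.7, 8.00 and 23.1 CPM in ILC2 (-1.71, edgeR adjusted p = 0.000422), higher in ILC2 although ILC2 of mouse 3 lay at the level of a fibroblast hashtag. Bnip3 was at 45.0 and 35.1 CPM in fibroblasts and 2.52, 4.43, 0.888 and 4.74 CPM in ILC2 (3.23, edgeR adjusted p = 2.22e-07), near 0 in ILC2.

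Of the HIF regulators, Hif1a was at 147 and 171 CPM in fibroblasts and 189, 263, 220.3 and 247 CPM in ILC2 (-0.73, edgeR adjusted p = 0.00272). Egln3 was at 6.72 and 7.73 CPM in fibroblasts and 16.4, 22.7, 31.1 and 31.9 CPM in ILC2 (-2.07, edgeR adjusted p = 1.01e-05). Egln1 was at 36.2 and 38.4 CPM in fibroblasts and 17.6, 21.2, 26.7 and 17.7 CPM in ILC2 (0.74, edgeR adjusted p = 0.00749). Thus Hif1a and Egln3 were higher in ILC2 and Egln1 in fibroblasts. Of the targets, Angptl4 was at 34.8 and 42.5 CPM in fibroblasts and 0, 0, 0 and 2.16 CPM in ILC2 (4.97, edgeR adjusted p = 6.73e-08). Vegfa was at 45.6 and 128 CPM in fibroblasts and 12.6, 18.2, 9.77 and 24.6 CPM in ILC2 (1.87, edgeR adjusted p = 4.88e-06). Adm was at 47.6 and 86.7 CPM in fibroblasts and 13.8, 11.3, 4.44 and 15.96 CPM in ILC2 (2.20, edgeR adjusted p = 1.37e-06). All 3 encode secreted proteins and were higher in fibroblasts. Ndrg1 was at 302 and 267 CPM in fibroblasts and 25.2, 101, 80.9 and 61.2 CPM in ILC2 (1.94, edgeR adjusted p = 1.53e-05). P4ha1 was at 74.2 and 97.3 CPM in fibroblasts and 11.3, 17.7, 35.5 and 20.3 CPM in ILC2 (1.84, edgeR adjusted p = 1.19e-05). P4ha2 was at 50.2 and 76.1 CPM in fibroblasts and 7.55, 7.39, 10.7 and 9.92 CPM in ILC2 (2.60, edgeR adjusted p = 3.96e-08). The collagen hydroxylases belong to matrix-making cells and were higher there. Ddit4 was at 9.64 and 40.6 CPM in fibroblasts and 36.5, 32.5, 40.0 and 87.3 CPM in ILC2 (-1.62, edgeR adjusted p = 1.44e-05), the 1 target that passed as higher in ILC2, with overlap between the types. Slc2a1, Hk1, Pfkp, Pfkfb3, Aldoa, Pkm, Slc16a3, Bnip3l and Ankrd37 did not pass, and Aldoc was too low to test.

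The other lists in the same contrast gave 12 higher and 8 lower of 26 further hypoxia targets tested, with the collagen cross-linkers Lox and Loxl2 and Tmem45a the widest apart. In healthy fibroblasts Lox was at 226 and 215, Loxl2 at 207 and 242 and Tmem45a at 62.8 and 68.6 CPM. Healthy ILC2 held none of the 3 in the mice of experiment 1, and at most 1.73 CPM, for Loxl2, in experiment 2. The lists gave 6 higher and 1 lower of 13 other glycolysis genes, led by Bsg (2.25, edgeR adjusted p = 1.36e-07), 2 higher and 2 lower of 7 pentose phosphate genes, with Pgd (1.30, edgeR adjusted p = 5.61e-05) and Taldo1 (-1.21, edgeR adjusted p = 1.2e-05) in opposite directions, and 4 higher and 1 lower of 12 genes of the HIF machinery, led by Arnt2 (2.59, edgeR adjusted p = 0.00149). Glucocorticoid and ATF4 genes were 5 higher and 3 lower of 10, led by Zbtb16 (3.49, edgeR adjusted p = 1.53e-07), and MYC and mTORC1 regulators 1 higher and 3 lower of 8, led by Mycn, at 0 and 0.322 CPM in fibroblasts and 41.9 to 83.4 CPM in ILC2.

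The effect of arthritis on these genes differed between fibroblasts and ILC2 when the difference itself was tested. With the STA effect in ILC2 taken from that in fibroblasts over both experiments, 8 of 33 members were higher and 2 lower, where 1.95% of the 12106 genes tested were higher and 2.04% lower. Both effects rest on the same STA and healthy mice as above, so this is no independent support for the calls already given. Gapdh differed by 1.01, SE 0.14, edgeR adjusted p = 0.000922, with separate estimates of 0.81 in fibroblasts and -0.26 in ILC2. The separate ILC2 estimates here and below come from the mice of experiment 1 alone, so the tested difference need not equal the gap between the separate estimates. Pgk1 differed by 0.97, SE 0.18, edgeR adjusted p = 0.00646 and Pkm by 1.06, SE 0.13, edgeR adjusted p = 0.000278, beside separate effects in ILC2 of 0.00 and -0.08. Pfkl differed by 1.502, SE 0.28, edgeR adjusted p = 0.00565, and Pfkp in the other direction by -0.93, SE 0.18, edgeR adjusted p = 0.00714. Slc16a3 differed by 1.75, SE 0.31, edgeR adjusted p = 0.00421. In fibroblasts Pfkp fell by 0.86, while its effect in ILC2 was 0.12 and did not pass.

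Hif1a rose in both types and differed by 0.95, SE 0.18, edgeR adjusted p = 0.0071, the effect being larger in fibroblasts. Egln3 differed by -2.46, SE 0.44, edgeR adjusted p = 0.00505, with separate estimates of -2.04 in fibroblasts and 0.79 in ILC2. Ddit4 differed by 1.87, SE 0.32, edgeR adjusted p = 0.00375, with 0.92 and -0.89, neither of which passed alone. Angptl4 differed by 3.72, SE 0.70, edgeR adjusted p = 0.0066, but it was near 0 in ILC2 and its difference turned to -0.74 when the healthy ILC2 hashtag of experiment 2 was left out. Without that hashtag 5 members were higher and 2 lower, without the STA fibroblast hashtag of experiment 1 5 and 0, and without its healthy hashtag 6 and 0. Ldha, which rose in both types, differed by 0.15, SE 0.16, edgeR adjusted p = 0.725 and did not pass. Of the other lists, Mif (1.68, edgeR adjusted p = 6.04e-05), Plod2 (1.24, edgeR adjusted p = 0.00774) and Fam162a (1.00, edgeR adjusted p = 0.0239) were higher and 1 lower of 28 further hypoxia targets, Sgk1 (1.15, edgeR adjusted p = 0.00997) was higher and Zbtb16 (-3.23, edgeR adjusted p = 0.00463) lower of 10 glucocorticoid and ATF4 genes. None of 17 other glycolysis genes (most abundant Bsg, 0.37, edgeR adjusted p = 0.259), 7 pentose phosphate genes (Pgls, 0.43, edgeR adjusted p = 0.18), 12 of the HIF machinery (Elob, 0.15, edgeR adjusted p = 0.658) and 8 MYC and mTORC1 regulators (Myc, -0.54, edgeR adjusted p = 0.139) passed.

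**Figure D5:**
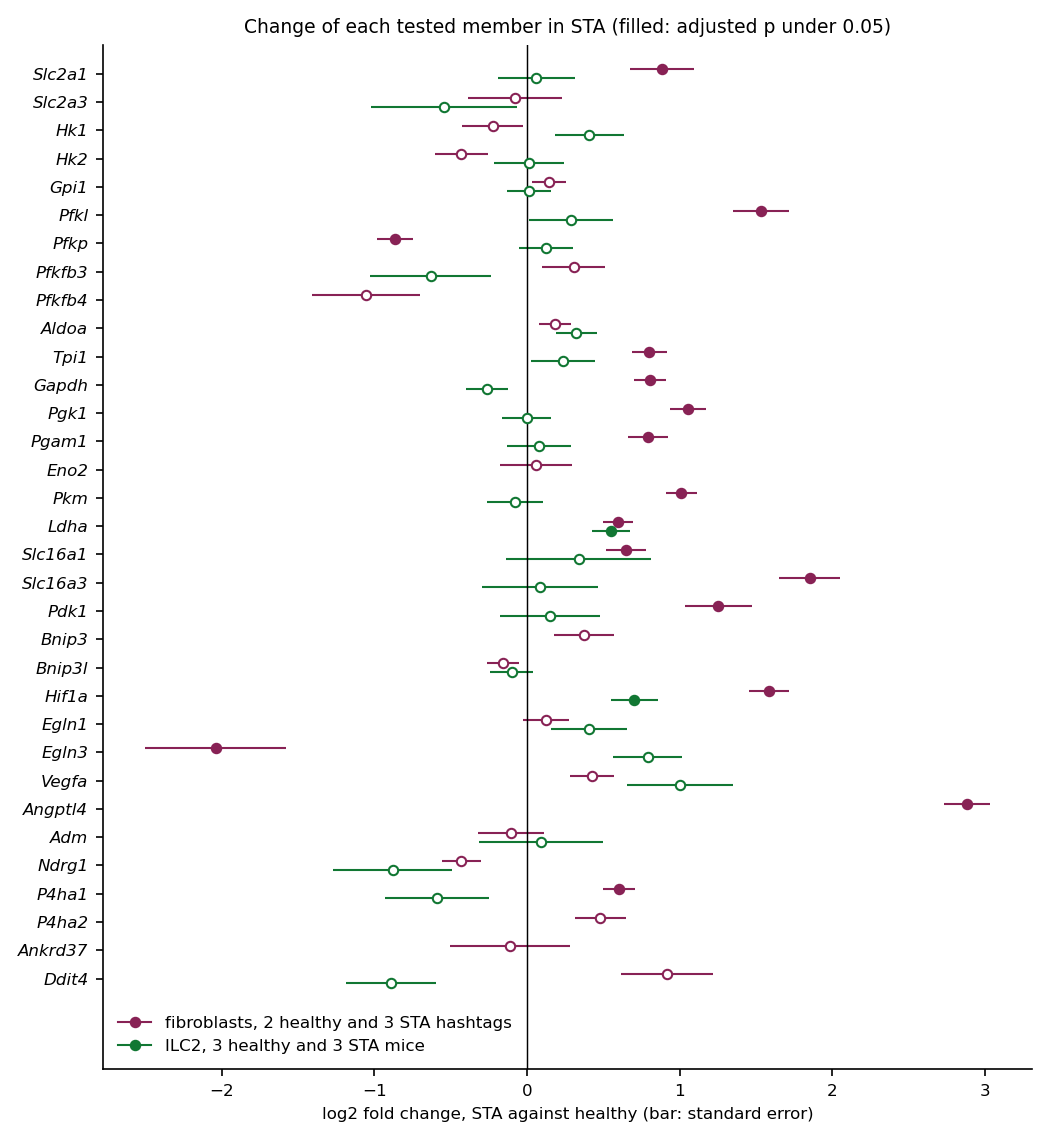
Log2 fold change of STA against healthy for the members tested, in fibroblasts (2 healthy and 3 STA hashtags of both experiments) and in ILC2 (3 healthy and 3 STA mice of experiment 1), with bars of 1 standard error; filled points passed the test and open points did not. In fibroblasts 14 filled points lie right of 0 and 2 left, with Angptl4 farthest right at 2.88, and in ILC2 Ldha (0.55) and Hif1a (0.70) are filled.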

How the data were processed

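Droplet 3′ single-cell RNA sequencing with hashtags was read from 6 wells: ILCs and fibroblasts sorted from mouse joints. The deposited matrices hold raw UMI counts per gene and barcode, made by Cell Ranger 6.1.2 per the file headers and, per the submitters' processing notes, by version 6.0.6 on the mm10 genome. The authors' deposited cell table gives each kept cell's class, condition, UMI counts and mitochondrial fraction, and is filtered to 8042 cells of 5 wells, 8039 of which matched. Of the cells matched, 3229 had UMI totals that differed from the table, by a median of 0.026%. Columns of other samples numbered 0.

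Cells took the authors' class and condition where the table has them. In the STA ILC well, and for STA ILCs of experiment 2, cells with at least 2000 UMIs (1500 for fibroblasts), 700 genes and at most 10% mitochondrial UMIs were kept, hashtags were called by HTODemux (Seurat 5.3.0, quantile 0.99), whose doublets were dropped, and classes were transferred from the 15 nearest neighbours in 30 components of 2000 variable genes, members excluded. HTODemux recovered 70.3% to 98.7% of the authors' calls. In the annotated wells of experiment 1 and in experiment 2 the transfer recovered 73.5%, 87.3% and 99.1% of ILC2 and 93.0%, 21.0% and 55.9% of ILC3, and 93.8%, 85.9% and 74.6% of the cells it put in ILC2 were so annotated, so ILC3 were compared only where the authors annotated them. In all 10508 cells were used, and 16 of 26773 barcodes were shared by wells. Fibroblast sums hold the authors' Il6+, Pi16+, Mmp3+, Cd200+ and Lining classes.

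Counts were summed per hashtag and class and tested with edgeR 4.0.16 (R 4.3.3; TMM factors, filterByExpr, quasi-likelihood, experiment as a term where both experiments enter), with adjustment over all genes tested. The replicate is the hashtag: in ILCs of experiment 1 a mouse, and elsewhere pooled or possibly pooled animals, so that p-values measure only the spread between these samples. Every fibroblast hashtag but the mild one held both Xist, a gene expressed in female cells (242.5 to 531 CPM), and Ddx3y (28.5 to 59.0 CPM). Those hashtags thus hold animals of both sexes. Single hashtags were compared by CPM ratios with exact 95% binomial intervals, among genes with at least 50 counts. On simulated data the ILC2 fit recovered 50% of genes changed 2-fold and 95% of those changed 4-fold, with 5 false calls among 7170 genes, and the fibroblast fit 51% and 86%, with 7 among 13249. Alternatives were DESeq2 1.42.0, upper-quartile factors, no filter on low counts, each hashtag left out, a replicate block, other cell selections and experiment terms. Within-class fits were chosen after seeing the data. Python 3.11.15, numpy 2.4.6, pandas 2.3.3, scipy 1.17.1, scanpy 1.11.5 and scikit-learn 1.9.0 were used. Sequences are RefSeq's, build GRCm38.p6, 250 bases before each listed start.

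The members and the gene lists were chosen with earlier results of these data known. All members are accounted for, with values per sample for those past the threshold in a comparison and otherwise for the 2 most abundant of a role. Of the other pathway lists, up to 3 genes past the threshold with the largest difference were named, or the most abundant where none passed. Some genes that this rule would name are not reported here.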

Additional observations from a re-analysis of the deposited data

Results flagged for a closer look

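Of 84 groups of 4 or more hashtags examined, in which chance sets 1 value apart in about 1 group in 20, 4 held a value far from the rest. In healthy ILC2 the experiment 2 hashtag stood apart for Hk1, at 35.8 CPM against 22.2 to 23.9 in the 3 mice of experiment 1, and for Ddit4, at 87.3 CPM against 32.5 to 40.0. P4ha2 stood at 17.3 CPM in ILC2 of STA mouse 1 against 4.04 to 7.37 in the other STA hashtags. Pfkp stood at 96.5 CPM in ILC3 of healthy mouse 3 against 69.3 to 73.1.

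The test of the difference between cell types put 10 members apart in their STA effect, fibroblasts minus ILC2 on the log2 scale. The difference was positive, at 1.502 for Pfkl, 1.01 for Gapdh, 0.97 for Pgk1, 1.06 for Pkm, 1.75 for Slc16a3, 0.95 for Hif1a, 3.72 for Angptl4 and 1.87 for Ddit4. It was negative for Pfkp (-0.93) and Egln3 (-2.46), both of which fell in fibroblasts, and neither of which passed in ILC2. Each well holds 1 sort, so the sort and the well cannot be told apart in this difference, but for the conditions that share a well in experiment 2 and in the fibroblast well of experiment 1.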

How the results depend on the processing

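Counts of members past the test moved as follows. In ILC2, STA against healthy gave 0 to 1 higher with 1 mouse left out, 2 lower without the filter on low counts, and 1 lower without cells holding Cd3d or Cd3e or with experiment 2 added. STA+Il23mc against STA gave 2 higher with 1 rule for calls and classes and 1 lower without the filter. Against healthy it gave 1 lower without the filter, without the Cd3 cells, with 1 rule, or with the replicate block, and 0 to 1 lower with 1 mouse left out. In ILC3, leaving out 1 mouse gave 8 to 16 higher and 0 to 1 lower, and without the Cd3 cells 2 rose and 2 fell, with Aldoa at -0.20, Gapdh at -0.63, Pgam1 at -0.052 and Pkm at -0.19. DESeq2 gave 9 higher and 1 lower there. In fibroblasts, leaving out 1 hashtag gave 9 to 16 higher and 1 to 4 lower, no filter 5 lower, and no experiment term 6 higher and 1 lower. Il6+ cells alone gave 1 higher and 1 lower, with Slc2a1 at -0.030, Gapdh at -0.031, Ldha at -0.20, Slc16a1 at -0.17 and Pdk1 at -0.68. Pi16+ cells alone gave 1 higher and 0 lower, with Slc2a1 at -0.20 and Pkm at -0.049, and fibroblasts without Mmp3+ cells 2 higher and 0 lower. For the difference between cell types, leaving out 1 hashtag gave 5 to 9 higher and 0 to 3 lower, with Angptl4 from -0.74 to 4.01, the former without the healthy ILC2 hashtag of experiment 2. Healthy fibroblasts against ILC2 kept counts within 1.5 times of 14 higher and 10 lower under each alternative run. The within-class and Cd3 fits hold fewer cells and test fewer genes. The cause of the other moves was not tested.

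Mouse numbers in the ILC wells did not pair the samples, since correlations of same-numbered deviations ran from -0.13 to 0.15. With the number as a replicate block, 2 members rose in ILC2 for STA against healthy, 1 rose for STA+Il23mc against STA, 3 rose and 1 fell against healthy, and in ILC3 11 rose and 1 fell. Depth limits ILC3 most, with 28 cells in the smallest sum, and 7 to 8 members were too low to test in ILCs.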
